A study of Rattus norvegicus with 5 samples.

Results

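Cd36, a membrane protein that takes up long-chain fatty acids, and the fatty acid binding proteins Fabp1, Fabp2, Fabp4, Fabp5 and Fabp7 were followed in rat liver. The 6 genes were chosen by name. Of these, 5 were measured, each by 1 of the 8797 probe sets of the table, and Fabp5 is not analysed here. The platform annotation gives the Cd36 probe set a second gene, Cd36l1, a paralogue beside Cd36 on chromosome 4, so the value called Cd36 below is that of the pair. PD.SHR4 is a congenic strain (PD.SHR4a in the series text) that carries a chromosome 4 segment of the spontaneously hypertensive rat, SHR, on the background of its progenitor, the polydactylous strain PD. SHR is known for a defective Cd36 gene. The extent of the segment is not given in the sources used here, and any effect of Cd36 cannot be told apart from that of other SHR genes in it. Both strains were 4-month-old males on standard chow, and labelled liver cDNA of 8 rats per strain was pooled before hybridisation. PD.SHR4 had 2 Affymetrix Rat Exon 1.0 ST arrays and PD had 3, so spreads are those between arrays of pooled cDNA, which may be technical, and not between rats.

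CD36 binds long-chain fatty acids at the cell surface and helps them enter the cell. Inside the cell, where free fatty acids are poorly soluble, small fatty acid binding proteins hold them in a barrel-shaped pocket and carry them to membranes, enzymes and nuclear receptors. FABP1 is the abundant liver form, FABP2 the intestinal form, FABP4 the form of adipocytes and macrophages, FABP5 the epidermal form and FABP7 the brain form. In rodents PPAR-alpha, a nuclear receptor that binds fatty acids, is known to induce Fabp1 and, in liver, Cd36. It acts as a pair with RXR on DR1 elements, direct repeats of a short half-site separated by 1 base. HNF4-alpha, a receptor of hepatocytes and enterocytes, binds the same type of element.

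Promoter sequences are shown because Fabp1 and Cd36 share PPAR-alpha as a known regulator. The part of these sequences in the strain contrasts was not tested. They come from RefSeq (GRCr8) and reach from 130 bases before the annotated start to the base before it, on the plus strand, so none holds transcribed sequence of that annotated start. Capitals mark DR1 matches, here the half-site AGNNCA followed after 1 base by AGNNCA again, searched on both strands. The pattern was written after these promoters had been read.
Fabp1 (chr4:104749210-104749339): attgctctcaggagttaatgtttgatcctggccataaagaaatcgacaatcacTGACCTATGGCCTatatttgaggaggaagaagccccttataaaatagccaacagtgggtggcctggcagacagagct
Fabp2 (chr2:213724499-213724628): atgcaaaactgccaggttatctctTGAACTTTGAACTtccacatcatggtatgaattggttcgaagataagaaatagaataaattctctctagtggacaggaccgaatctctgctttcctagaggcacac
Cd36 (chr4:18246452-18246581): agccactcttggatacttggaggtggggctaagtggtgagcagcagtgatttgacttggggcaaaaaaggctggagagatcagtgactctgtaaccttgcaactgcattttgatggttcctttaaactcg
Fabp7 (chr20:37669476-37669605): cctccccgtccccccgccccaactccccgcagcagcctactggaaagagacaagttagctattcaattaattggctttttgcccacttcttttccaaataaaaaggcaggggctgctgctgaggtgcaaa

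The Fabp1 match lay 77 to 65 bases before the start, and the Fabp2 match 106 to 94 bases before it, both on the minus strand. Over the full windows of 300 bases, 250 before and 50 after the start, neither Cd36, Cd36l1 nor Fabp7 held a match. Only 1 annotated start of each of these genes was searched. Among 33469 promoter windows of that length, 2.66% held a match. Since the pattern was written with these promoters in view, neither this share nor those below measure how unusual their matches are. The Fabp1 match also met the stricter half-site AGGNCA, found as a DR1 in 0.415% of windows, and the Fabp2 match did not. None of these promoters held a DR1 of the full consensus half-site AGGTCA, found in 0.0538% of windows. The sequences are those of the reference strain, and the rats of the study were not sequenced here.

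The signal of the Cd36 probe set was lower in PD.SHR4 liver. Its log2 values were 4.18 and 4.85 on the PD.SHR4 arrays, against 7.35, 7.83 and 7.93 on the PD arrays. Both congenic arrays lay far below every PD array, and the gap between the strains was wider than the range within either. The mean was 4.52 ± 0.47 (SD, n = 2) in PD.SHR4 and 7.71 ± 0.31 (SD, n = 3) in PD. The log2 difference was -3.19 ± 0.26 (SE), with a 95% interval of -3.84 to -2.54 (limma, adjusted p = 0.0149). The signal in PD.SHR4 was thus 0.110 of that in PD, with an interval of 0.0699 to 0.173. Whether the probes bind the SHR sequence as well as that of PD was not tested.

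Of all probe sets, 0.932% passed this test in either direction, and 1 of the 5 measured members did. Only 5 of the 8797 probe sets, that of Cd36 among them, had a log2 difference as low as that of Cd36. Without PD array 3 the adjusted p (limma) of Cd36 was 0.0516, and without PD.SHR4 array 1 or 2 it was 0.105 or 0.130, while the log2 difference lay between -3.52 and -2.85 over all left-out arrays. When limma's shrinkage of the variances was not used, the adjusted p was 0.197.

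**Figure D1:**
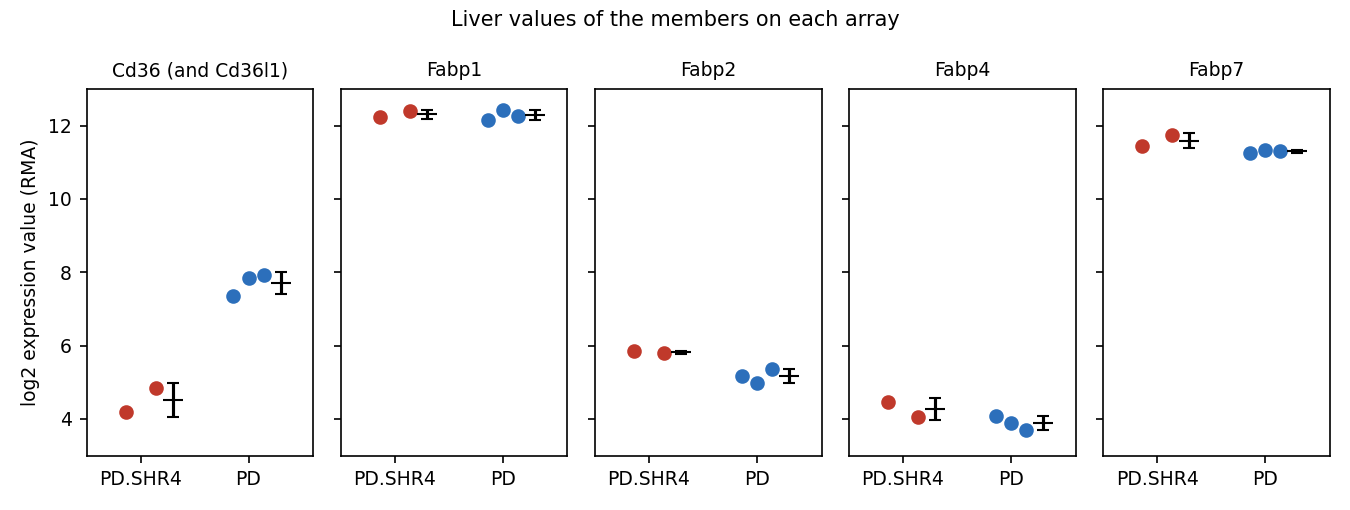
Log2 RMA values of the 5 measured members on each array, PD.SHR4 (red, 2 arrays) left of PD (blue, 3 arrays), with the mean and SD in black. Cd36 values of 4.18 and 4.85 in PD.SHR4 stand below 7.35 to 7.93 in PD, while Fabp1 overlaps between the strains.

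On the PD.SHR4 arrays 39.1% to 46.6% of all probe sets were dimmer than that of Cd36, against 74.7% to 79.1% on the PD arrays. These shares place a probe set by brightness, which also depends on its probes, so they give no order of transcript amounts between genes. The table holds no detection calls, so the values do not show whether any Cd36 transcript was left in PD.SHR4, and the signal of Cd36l1 in either strain cannot be told apart from that of Cd36.

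Fabp1, the main fatty acid carrier of hepatocytes, did not differ detectably between the strains. It measured 12.23 and 12.39 in PD.SHR4, against 12.16, 12.42 and 12.27 in PD, and the arrays of the strains overlapped. The log2 difference was 0.025 ± 0.14 (SE), with a 95% interval of -0.31 to 0.36 (limma, adjusted p = 0.966), and its sign turned without PD array 1 or PD.SHR4 array 2. As a fold the interval was 0.807 to 1.28. The Fabp1 probe set was among the brightest, with 99.2% to 99.5% of probe sets dimmer on each array. Fabp1 lies on chromosome 4, as Cd36 does, and whether the SHR segment reaches it is not given in the sources used here.

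Fabp2, best known from enterocytes, was higher in PD.SHR4 on every array but did not pass the test. Its values were 5.84 and 5.79 in PD.SHR4 and 5.18, 4.97 and 5.36 in PD. Both congenic arrays lay above the highest PD array, by more than the range within either strain. The log2 difference was 0.65 ± 0.15 (SE), a ratio of 1.57 with a 95% interval of 1.21 to 2.02 before any adjustment over probe sets (limma, adjusted p = 0.134). It passed in 1 of 12 alternative fits, that with array weights, at a log2 difference of 0.50 (limma, adjusted p = 0.0435). In that fit 819 of all 8797 probe sets passed, against 82 in the main fit. Of the enterocyte markers, 2 of 9 were measured, and neither passed: the intestinal alkaline phosphatase Alpi had 3.75 and 3.69 in PD.SHR4, against 3.70, 3.60 and 3.55 in PD, and for the sucrase-isomaltase gene Si at most 6.51% of probe sets were dimmer on any array. The summed level of the pair was 3.99 to 4.04 in PD.SHR4 and 3.88 to 4.01 in PD on the log2 scale, and its part in the Fabp2 values was not tested.

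Fabp7, the brain form, had a bright probe set in these livers. Its values were 11.45 and 11.73 in PD.SHR4 and 11.24, 11.35 and 11.30 in PD. The strains did not overlap, although the lower congenic array stood only just above the highest PD array. The log2 difference was 0.30 ± 0.13 (SE), with a 95% interval of -0.033 to 0.63 (limma, adjusted p = 0.417). On each array 97.4% to 98.5% of probe sets were dimmer than Fabp7. Of 7 markers of nervous system glia 4 were measured, Gfap, S100b, Mbp and Sox10, and all had log2 differences below 0. None passed the test (limma; 0 at an unadjusted p under 0.05, against 1211 of all 8797 probe sets). The summed level of the 4 was 6.52 to 6.56 in PD.SHR4 and 6.69 to 6.75 in PD on the log2 scale, with a median log2 difference of -0.21, and its part in the Fabp7 values was not tested. Whether the Fabp7 probes also bind transcripts of related genes was not tested.

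Fabp4, the form of adipocytes, macrophages and some endothelial cells, did not pass the test. It measured 4.48 and 4.05 in PD.SHR4 and 4.08, 3.89 and 3.70 in PD, so the strains overlapped. The log2 difference was 0.37 ± 0.19 (SE), with a 95% interval of -0.085 to 0.83 (limma, adjusted p = 0.470). Of 9 adipocyte markers 7 were measured and none passed (limma; 1 at an unadjusted p under 0.05, against 1211 of all 8797 probe sets). With 4 values above 0 and 3 below, the median log2 difference was 0.030. The summed level was 9.53 to 9.68 in PD.SHR4 and 9.42 to 9.67 in PD. Most of that sum came from Cidec, the brightest of the 7, with 9.46 and 9.28 in PD.SHR4 and 9.37, 9.21 and 9.44 in PD. Of the 7, 2 did not overlap between the strains and went opposite ways, against 31.9% of all probe sets not overlapping. Retn, the gene of the hormone resistin, was at -0.45 ± 0.17 and Lipe, the hormone-sensitive lipase gene, at 0.39 ± 0.18 (log2 difference, SE). Adipoq, the adipocyte hormone adiponectin, had 2.12 and 2.30 in PD.SHR4 and 2.66, 2.18 and 1.93 in PD. The part of adipocytes in the Fabp4 values was not tested. In bulk liver, fewer cells of a type and less RNA per cell cannot be told apart.

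All 4 measured Fabp members had log2 differences above 0, as did 50.02% of all probe sets. None passed the test (limma), and at an unadjusted p under 0.05 there was 1, Fabp2, against 1211 of all 8797 probe sets. Groups of arrays did not overlap for 3 of the 5 members, Cd36, Fabp2 and Fabp7, against 31.9% of all probe sets. Of the other measured Fabp genes, Fabp3 of heart and muscle had a log2 difference of -0.15 ± 0.16 (SE), the ileal bile acid binding protein gene Fabp6 0.24 ± 0.15 (SE) and the testis form Fabp9 0.043 ± 0.14 (SE). Their arrays overlapped between the strains. On each array at most 15.7% of probe sets were dimmer than Fabp6 and at most 6.33% were dimmer than Fabp9.

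**Figure D2:**
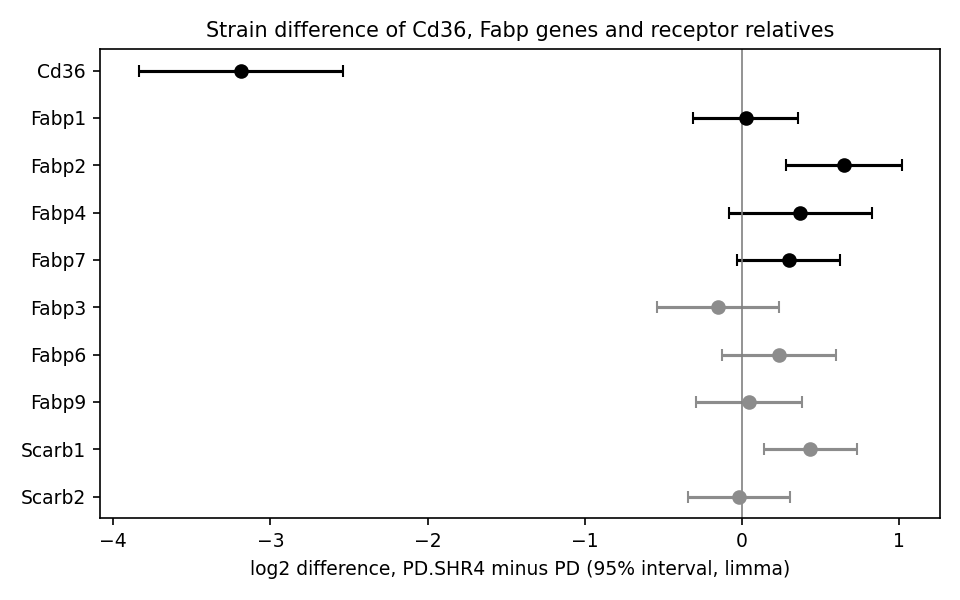
Log2 difference of PD.SHR4 minus PD (points) with 95% intervals from limma for the measured members (black) and for other Fabp genes and the Cd36 relatives Scarb1 and Scarb2 (grey). The Cd36 interval of -3.84 to -2.54 overlaps none of the others, and the Fabp2 interval of 0.28 to 1.02 lies above 0 before any adjustment.

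The change of Cd36 was set against each Fabp gene within arrays, as the log2 ratio of the Cd36 probe set over the Fabp probe set. Only the change of such a ratio between strains has a meaning, since its level mixes the brightness of different probes. Over Fabp1 the ratio was -8.04 and -7.54 in PD.SHR4, against -4.80, -4.59 and -4.34 in PD. It thus differed by -3.21 between the strains, with a 95% interval of -4.02 to -2.40 from ordinary least squares. The corresponding differences were -3.83 over Fabp2, -3.56 over Fabp4 and -3.48 over Fabp7, with the widest interval, -5.29 to -1.82, over Fabp4. No ratio overlapped between the strains, but all 4 share the Cd36 values and so largely restate the Cd36 difference. An exact permutation test over the arrays (two-sided) gave p = 0.20 for each of the 4 ratios, the smallest value that 2 arrays against 3 allow.

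**Figure D3:**
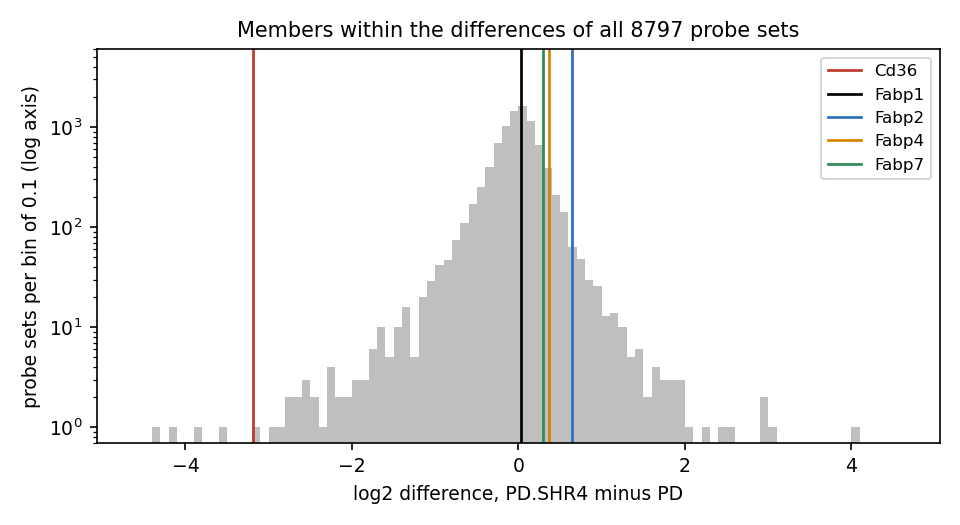
Number of probe sets (log axis) by log2 difference of PD.SHR4 minus PD in bins of 0.1, over all 8797 probe sets, with coloured lines at the measured members. Cd36 stands in the far lower tail at -3.19, while the 4 Fabp genes lie between 0.025 and 0.65.

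Among the wider family of intracellular lipid-binding proteins, which also holds the cellular retinoid carriers, 9 of 16 listed genes were measured. None passed in either direction (limma; 1 at an unadjusted p under 0.05, against 1211 of all 8797 probe sets). Of the 9 values 8 were above 0, as were 50.02% of all probe sets, with a median log2 difference of 0.24, against 0.0002 over all probe sets. The 9 include the 4 measured Fabp members, and for 3 of the 9 fewer than 25% of probe sets were dimmer on every array. The retinol carrier Rbp2 had 4.53 and 4.80 in PD.SHR4 and 4.43, 4.27 and 4.39 in PD, a log2 difference of 0.31 ± 0.14 (SE; limma, adjusted p = 0.411). The median was 0.16 without PD.SHR4 array 1 and 0.12 without PD.SHR4 array 2.

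In the list of CD36 receptor relatives, partners and ligands, Cd36 fell and the other 13 of 14 measured genes did not pass (limma). At an unadjusted p under 0.05 (limma) there were 4 of the 14, Cd36 included, against 1211 of all 8797 probe sets. The list's median log2 difference was -0.12, and -0.10 without Cd36. Scarb1, the HDL receptor of the CD36 family, had 9.13 and 9.04 in PD.SHR4 and 8.73, 8.66 and 8.55 in PD, a log2 difference of 0.44 ± 0.12 (SE; limma, adjusted p = 0.189). Scarb2, the lysosomal member, had a log2 difference of -0.020 ± 0.13 (SE), and its arrays overlapped. Both Scarb1 arrays of PD.SHR4 stood above all PD arrays, on the other side from Cd36. Groups of arrays did not overlap for 6 of the 14 genes, Cd36 included, against 31.9% of all probe sets.

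Tlr2, a pattern-recognition receptor with which CD36 cooperates on macrophages, had 3.96 and 3.62 in PD.SHR4 and 5.16, 4.77 and 5.92 in PD. Its log2 difference was -1.49 ± 0.34 (SE; limma, adjusted p = 0.133). The tetraspanin gene Cd81 and the palmitoyltransferase gene Zdhhc4 had log2 differences of -0.46 ± 0.12 and -0.27 ± 0.14 (SE), and neither passed. Kupffer cells and other macrophages also express Cd36. Of 13 macrophage and Kupffer cell markers 8 were measured, 7 of them below 0, with a median log2 difference of -0.44 and none past the test (limma; 5 at an unadjusted p under 0.05). Of the 8, 7 did not overlap between the strains, against 31.9% of all probe sets. These 7 include the lysozyme gene Lyz2, the 1 marker above 0. Lyz2 had 8.67 and 8.80 in PD.SHR4 and 8.51, 8.66 and 8.56 in PD. The summed level of the 8 was 11.92 to 12.0 in PD.SHR4 and 12.2 to 12.4 in PD on the log2 scale. Its part in the Cd36 and Tlr2 values was not tested.

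The macrophage marker with the lowest log2 difference, the immune adaptor gene Tyrobp, was -0.80 ± 0.12 (SE; limma, adjusted p = 0.0572). The macrophage receptor Adgre1, the complement receptor Vsig4 and the complement gene C1qb measured -0.71, -0.57 and -0.44, while Lyz2 measured 0.16. Clec4f, a lectin of Kupffer cells, had -0.079 and overlapped between the strains. Of 10 endothelial markers only the sialomucin gene Emcn was measured, with 5.003 and 5.52 in PD.SHR4 and 5.74, 6.17 and 5.75 in PD. Of 10 platelet and erythroid markers 3 were measured, all below 0 with a median log2 difference of -0.22 and a summed level of 7.12 to 7.13 in PD.SHR4 and 7.26 to 7.47 in PD. The part of these cells in the Cd36 values was not tested. Of 12 hepatocyte markers 10 were measured and none passed (limma; 2 at an unadjusted p under 0.05, against 1211 of all 8797 probe sets). Their median log2 difference was 0.050, and their summed level was 15.96 on both PD.SHR4 arrays and 15.87 to 15.94 in PD. Of the 10, 6 did not overlap between the strains, against 31.9% of all probe sets. The cytochrome P450 gene Cyp2e1 and the tyrosine aminotransferase gene Tat, the pair below that unadjusted p, had log2 differences of 0.43 ± 0.11 and -0.61 ± 0.21 (SE) in opposite directions. The albumin gene Alb stood above 13 on every array.

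Fatty acid uptake and acyl-CoA binding genes, 16 of 21 measured, had a median log2 difference of -0.047. None passed (limma; 5 at an unadjusted p under 0.05, against 1211 of all 8797 probe sets). The acyl-CoA synthetase gene Acsl3, whose product activates fatty acids, had 5.12 and 4.70 in PD.SHR4 and 5.87, 6.94 and 6.26 in PD, a log2 difference of -1.45 ± 0.33 (SE; limma, adjusted p = 0.130). Slc27a2, a very long-chain fatty acid transporter and synthetase, measured 0.43 ± 0.12, the acyl-CoA binding gene Acbd4 0.35 ± 0.11 and the lipoprotein lipase gene Lpl 0.56 ± 0.19 (log2 difference, SE). Of the 16 genes, 7 had arrays that did not overlap between the strains, against 31.9% of all probe sets.

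Of 20 nuclear receptors and other factors known to control Cd36 or Fabp genes, 19 were measured. None passed (limma; 5 at an unadjusted p under 0.05, against 1211 of all 8797 probe sets). Their median log2 difference was -0.022, and 13 of the 19 had arrays that did not overlap between the strains, against 31.9% of all probe sets. Ppara, the gene of PPAR-alpha, was higher on both PD.SHR4 arrays, at 8.98 and 9.42, against 7.23, 7.71 and 6.70 in PD, with a log2 difference of 1.99 ± 0.31 (SE; limma, adjusted p = 0.0606). The xenobiotic receptor gene Nr1i2 measured 0.70 ± 0.14, and the liver forkhead factor genes Foxa3 and Foxa1 0.95 ± 0.20 and -0.55 ± 0.12 (log2 difference, SE). Hnf4a, the gene of HNF4-alpha, had a log2 difference of 0.12 and Pparg 0.17. The DR1 matches shown above for Fabp1 and Fabp2 are descriptions of letters, and binding was not measured.

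Likeness to Cd36 was measured as the root mean square difference of log2 values over the 5 arrays after each gene was centred on its own mean. Such a measure mostly reads the strain difference, since both genes must fall by a similar amount. The most alike were the clock activator gene Bmal1 (0.33), Ly6c (0.38), the acid phosphatase gene Acp3 (0.38), Apol3l1 (0.40) and Insig1 (0.40), which encodes an anchor of SREBP in the endoplasmic reticulum. On PD.SHR4 array 1 Cd36 was further below its mean than any of these 5. Bmal1 had a log2 difference of -3.58 ± 0.23 (SE), and the clock output gene Dbp one of 4.01 ± 0.54 (SE), both past the test (limma). Whether a difference in clock phase or collection time took part in the Cd36, Fabp or Ppara values was not tested. The most alike to Fabp2 were the folate receptor gene Folr1 (0.051), Creb3l3 (0.073), a transcription factor gene of liver and intestine, and the vomeronasal receptor gene Vom1r81 (0.079), whose values in PD were 1.51 to 1.82.

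**Figure D4:**
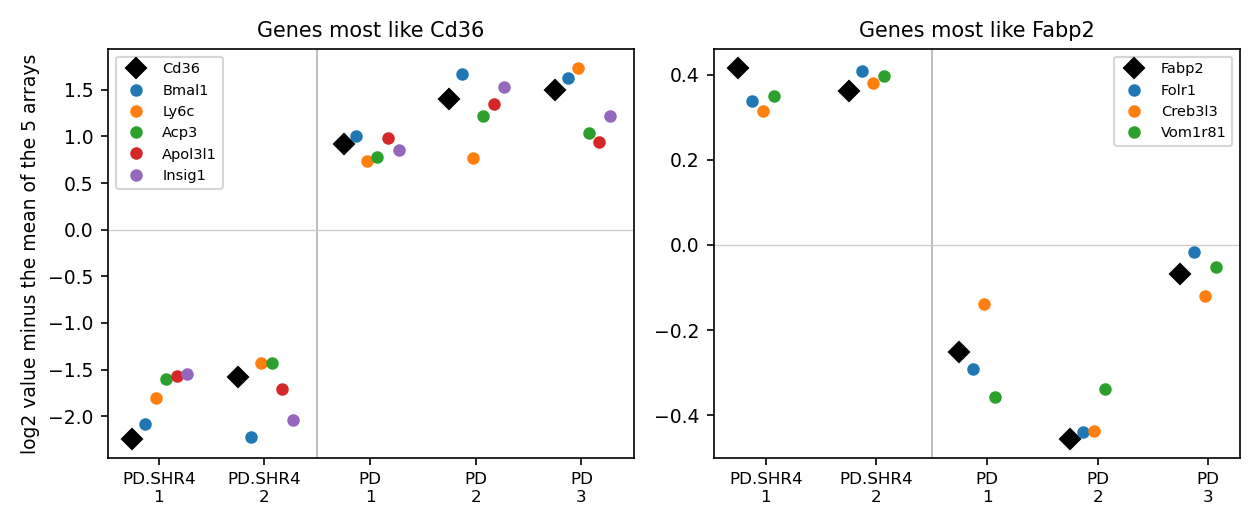
Log2 values minus the mean of the 5 arrays for Cd36 and the 5 genes most like it (left) and for Fabp2 and the 3 genes most like it (right), PD.SHR4 arrays left of PD arrays. Symbols within an array are set side by side, and the vertical axes differ between the panels.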

How the data were processed

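The authors deposited log2 expression values for 5 arrays and, per the labels, made them with RMA at core-gene level in Expression Console: a modelled background is removed, array distributions are matched and each gene's probes are combined. Partek is also named in the submitters' processing notes. Neither software versions nor the annotation release or build are stated there. Array medians were 5.21 to 5.38. Precision is bounded by having 5 arrays. The platform annotation gave 7603 probe sets a single symbol, and RefSeq (GRCr8) gene IDs matched 7584 of them. The brightest probe set stood for a gene.

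The contrast was PD.SHR4 minus PD, fitted with limma 3.58.1 (R 4.3.3; two-sided, no covariate) and adjusted by Benjamini-Hochberg over 8797 probe sets at a threshold of 0.05. The fit was tested on simulated data. Ratios of Cd36 over the other probe sets were planned with limma too. All share the Cd36 row, which makes limma's p-values too small, so ordinary intervals and exact tests are given. Genes named were the members, up to 4 of each list by smallest p, and the 5 and 3 most like Cd36 and Fabp2. Alb, Adipoq, Cidec, Clec4f, Lyz2, Dbp, Scarb2, Fabp3, Fabp6, Fabp9, Hnf4a and Pparg fall outside that rule and were chosen after their values were seen. Members and lists were chosen with earlier results of these data known. Alternatives left out each array, blocked the replicate number, or changed the shrinkage, normalisation, array weights or dim-probe filter.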

Additional observations from a re-analysis of the deposited data

How the results depend on the processing

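The strain difference of Cd36 stayed below 0 in all 12 alternative fits, at -3.52 to -2.85, and its adjusted p (limma unless stated) ranged from 2.37e-04 to 0.197. It did not pass without variance shrinkage (-3.19; ordinary fit) or without 3 of the single arrays. The ratios of Cd36 over each Fabp gene, which share the Cd36 values, also stayed below 0 in all 12, between -4.20 and -2.96. Fabp1 changed sign without PD array 1 (-0.039) and without PD.SHR4 array 2 (-0.056), and Fabp2 passed with array weights (0.50). Fabp4 and Fabp7 kept their direction and did not pass in any. Of the members, 2 passed with array weights, in a fit where 819 of all 8797 probe sets passed. The number was 0 without shrinkage, 0 with the Cd36 probe set counted out, and 0 to 1 with a PD array left out.

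In the main comparison 82 of all probe sets passed. The number was 819 with array weights, 149 without the dimmest 25% of probe sets, 151 with an intensity trend, 2 without shrinkage and 0 to 55 with an array left out. The replicate number as a block gave 163, with Cd36 at -3.07 and past the threshold. The numbers were not taken to pair the arrays, since deviations of same-numbered arrays correlated at 0.05 and 0.082, and the block changed no member's call.

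With array weights 1 of 9 lipid-binding protein genes, 4 of 14 CD36 relatives, 4 of 16 uptake genes and 5 of 19 regulators passed. In that fit 819 of all 8797 probe sets passed. Of the CD36 relatives, 2 passed with the block, 0 without shrinkage and 0 to 1 with an array left out. Of the regulators, 1 passed with centred arrays, without dim probe sets, with the trend, after further quantile normalisation and with the block. The lipid-binding median was 0.13 with array weights, 0.29 with centred arrays, 0.30 without dim probe sets and 0.12 to 0.28 with an array left out. The median of CD36 relatives with Cd36, -0.12 in the main comparison, was -0.063 with centred arrays and -0.16 to -0.031 with an array left out. The regulators' median was 0.11 with array weights, 0.031 with centred arrays and -0.040 to 0.075 with an array left out, so it has no settled sign. The cause of these shifts was not tested.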
